A study of Temnothorax rugatulus with 32 samples.

Results

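The 100 contigs with the most reads in the fat body of queens of the ant Temnothorax rugatulus are described here, out of 228763 contigs of the deposited count table. A contig is a transcript assembled from the reads without a genome. Contigs were ranked by their mean CPM, the counts of a contig scaled to the same library total, over all 16 fat body libraries, old and young together, so that rank 1 is the contig with the most counts. The ranking used the fat body levels themselves, and those levels, their sum and their excess over the brain are given as descriptions without a test.

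The study addressed age and gene activity in queens, which live long. It holds the brain and the fat body of 8 queens labelled Old and 8 labelled Young, all collected in the field, which gives 32 libraries in 4 groups of 8. The labels give no age in years, colony, genotype or treatment, and a number marks a queen and is shared by its brain and fat body. Library totals ranged from 13861667 to 33461227 counts, and from 20658985 to 31200003 in the fat bodies. Complexin, a protein of nerve endings, stood at 55.8 to 280 CPM in the brains and at 0.0804 to 4.34 CPM in the fat bodies.

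The insect fat body combines tasks that vertebrates divide between liver and fat tissue. It stores lipid, glycogen and protein, makes most of the proteins of the blood, and in laying females makes yolk protein for the eggs. It also releases proteins of the immune response into the blood. Messages for such secreted and storage proteins are commonly among the most abundant in this organ. No file gives the sequence of a contig, and none is shown.

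The 100 contigs took a larger mean share of the counts in old than in young fat bodies. In the 8 old fat bodies they held between 44.0% and 55.1% of the counts, with a median of 52.2%. In the 8 young fat bodies they held between 34.0% and 48.7%, with a median of 39.7%. The ranges overlapped: 6 of 8 old fat bodies lay above the highest young one, and 8 of 8 lay above the young median. The means were 51% ± 3.71 (SD, n = 8) and 40.5% ± 4.78, a difference of 10.5 percentage points. In the brain the order was the other way round, at 12.4% ± 2.14 in old and 14.4% ± 1.0 in young queens. The brain ranges overlapped, at 10.3% to 16.6% and 13.2% to 16.0%. Most of the brain difference lay in the 7 members with a higher mean CPM in the brain than in the fat body. These 7 held 5.49% of the counts in old and 7.20% in young brains. The 42 members at over 10 times their brain level in the fat body held 0.503% ± 0.332 and 0.672% ± 0.801. The remaining 51 members together differed little between old and young brains.

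**Figure D1:**
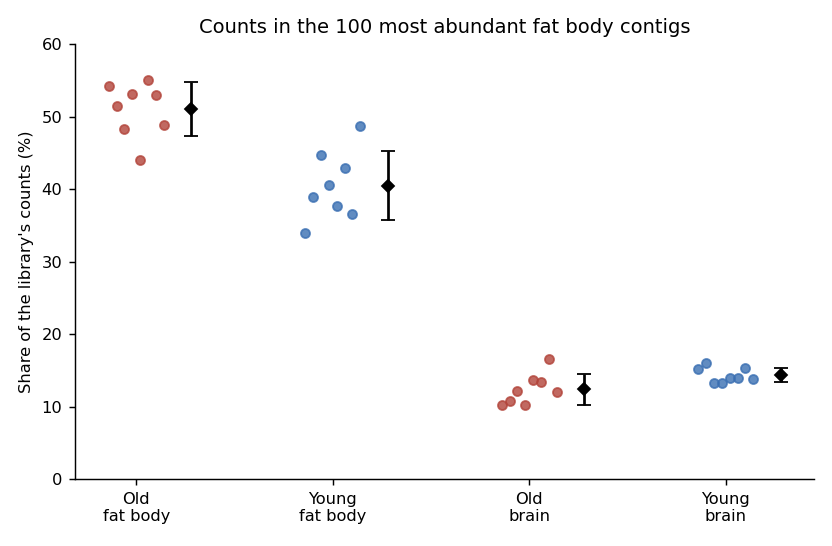
Share of each library's counts (%, vertical axis) taken by the 100 contigs in the 4 groups. Circles are the 8 libraries of a group and diamonds with bars the mean ± SD. Old fat bodies reach from 44.0% to 55.1% and young ones from 34.0% to 48.7%, and all brains stay at or below 16.6%.

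The difference came from the very top of the ranking. The 10 most abundant contigs held 33.3% ± 4.65 of the counts in old and 21.5% ± 5.05 in young fat bodies. The other 90 members, ranks 11 to 100, held 17.7% ± 1.74 and 19.0% ± 2.68, and ranks 101 to 200, which are no members, held 5.76% ± 0.544 and 7.65% ± 0.675. The share thus stood higher in old queens among the top 10 members and lower below them. Of the 100 members 42 had a higher and 58 a lower mean CPM in old fat bodies. The 42 gained 15.2 percentage points and the 58 together fell by 4.70 points. CPM sums to the same total in every library, so the shares are not independent of each other. In the edgeR fit given below, which rescales the libraries, 54 of the 100 members had a positive log2 difference.

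**Figure D2:**
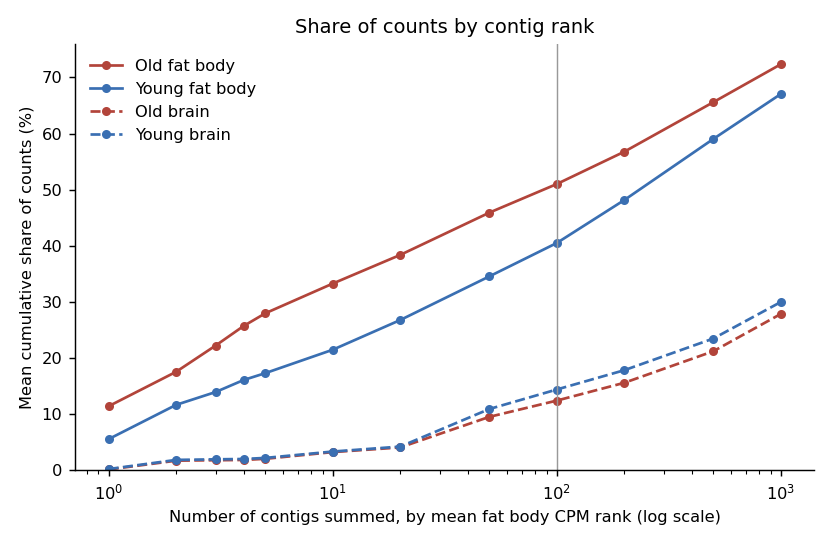
Mean share of counts (%, vertical axis) summed over the contigs of highest mean fat body CPM, against the number of contigs summed (log scale), for the 4 groups. The old and young fat body lines part within the top 10 contigs, which reach 33.3% and 21.5%, and run closer together beyond rank 100, marked by the vertical line.

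The most abundant contig, TR76576c5_g1_i1 of 3993 bases, accounts for 55.8% of the difference in share. It stood at 36719 CPM in the lowest, 129104 in the median and 172749 in the highest old fat body, and at 8599, 50432 and 126827 CPM in young ones. The old median lay just above the highest young library, but the fat bodies of queens O-482 and O-829 lay below the young median, so the groups overlap widely. The log2 difference of old against young was 1.31 ± 0.58 (SE; edgeR quasi-likelihood test, adjusted p = 0.34, unadjusted p = 0.039). Without this contig the other 99 held 39.6% ± 2.99 in old and 35% ± 5.12 in young fat bodies, a difference of 4.65 points. The files do not pair this contig with a protein name.

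Part of the abundance was shared between contigs of the same assembly component, which are sequences the assembler found to be alike or joined. The 100 members fall into 86 components, and 8 of these hold more than 1 member, 22 members in all. The leading component holds the members of ranks 1, 7, 9, 12 and 21. Together they took 6.02% to 22.5% of the counts in old fat bodies, with a mean of 15.2% ± 6.65, and 1.44% to 17.2% in young ones, with a mean of 7.68% ± 5.84. This component stood 7.52 points higher in old fat bodies, and in brains it held 0.172% ± 0.135 in old and 0.287% ± 0.452 in young queens. The component of ranks 3, 17 and 25 took 5.61% ± 1.14 in old and 3.05% ± 1.91 in young fat bodies. Reads of such contigs can be divided between them by the counting, so their separate levels are less certain than their sum.

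Per base of transcript the order at the top differed. Rank 2, of 1164 bases, had the highest level per length, at 52548 CPM per kilobase as a mean of 16 fat bodies. Rank 4 followed at 34927 and rank 3 at 34399 CPM per kilobase, and rank 1 came next at 21200. Of the 10 contigs with the highest CPM, 8 were also among the 10 highest per kilobase. Members were 450 to 15793 bases long, with a median of 1833.5 bases, against 2014.5 bases over the contigs tested for age in the fat body.

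Rank 2, TR68929c11_g1_i1, showed no such lead in old queens. It stood at 27004, 63359 and 108574 CPM (lowest, median, highest) in old and at 38314, 53533 and 111116 CPM in young fat bodies, and the groups overlapped almost fully (log2 difference 0.25 ± 0.32, edgeR adjusted p = 0.85). Rank 3 stood at 29585, 50548 and 57103 CPM in old fat bodies and at 7376, 18780 and 45312 CPM among young ones. Rank 5, the longest of the top 10 with 12424 bases, stood at 7776, 23222 and 35179 CPM in old fat bodies and at 5206, 12205 and 17369 CPM among young ones. For ranks 3 and 5 the old median lay above the highest young fat body while the ranges overlapped. Neither passed the threshold in the main test (log2 differences 1.26 ± 0.42 and 1.17 ± 0.36, edgeR adjusted p = 0.17 and 0.14). Both passed by another test, DESeq2 (adjusted p = 0.039 and 0.029). In an edgeR fit of all 32 libraries rank 5 passed and rank 3 did not (adjusted p = 0.022 and 0.33). Rank 10, with medians of 4953 CPM for old queens and 6565 CPM for young ones, had a lower level in old queens (log2 difference -0.24 ± 0.33, edgeR adjusted p = 0.86).

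Levels varied widely between queens of the same age. Among the 8 old fat bodies the highest was a median of 3.08 times the lowest, more than 10 times in 10 members and under 3 times in 49. Among the 8 young ones it was a median of 4.02 times the lowest, more than 10 times in 24 members and under 3 times in 36. The coefficient of variation had a median of 38.7% in old and 46.8% in young fat bodies, and it was higher in young ones for 57 of 100 members. On plain CPM the highest fat body was a young one for 66 members and an old one for 34. Young queen Y-333 held the highest level of 16 members, young queen Y-503 of 12, and old queen O-603 and young queen Y-453 of 11 each.

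Tested contig by contig with TMM scaling, which assumes that most contigs do not differ, 1 of the 100 members passed an adjusted p of 0.05. All 100 had passed the filter on low counts in every comparison. Over all 27664 contigs tested in the fat body 179 passed, or 0.647%, with 0.452% higher and 0.195% lower. Among the 100 contigs of ranks 101 to 200, 4 passed, 2 higher and 2 lower. At an unadjusted p under 0.05, 23 members were higher and 20 lower in old queens, against 7.22% and 6.06% of all tested contigs. The same counts were 10 and 35 for the 100 contigs of ranks 101 to 200. The median log2 difference was 0.16 over the members, -0.28 over ranks 101 to 200 and 0.01 over all tested contigs.

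The number of members called differed between tests. DESeq2 called 22 members, 14 higher and 8 lower, where it called 5.22% of all contigs, 2.87% higher and 2.35% lower. Limma-voom called 6, 5 higher and 1 lower, at 1.32% of all contigs, 0.864% higher and 0.459% lower. Of the members, 6 were called by both of these tools: transferrin, beta-1,3-glucan-binding protein-like, alpha-2-macroglobulin-like protein 1, eukaryotic initiation factor 4A-I and the uncharacterized proteins of ranks 39 and 74. Scaled by library totals alone, 14 members were called, 1 higher and 13 lower, against 3.54% of all contigs, 0.553% higher and 2.98% lower, and the median of all contigs moved by -0.29. In that fit the members' own median was -0.14 and that of all tested contigs -0.29. With all 32 libraries in 1 fit 15 members were called, 7 higher and 8 lower, against 4.42% of all contigs, 2.92% higher and 1.51% lower. With counts summed per assembly gene, 9 of the 93 genes that hold members were called, 6 higher and 3 lower, against 4.54% of all genes, 2.25% higher and 2.29% lower. Without a filter 1 member was called, against 0.0203% of all contigs, and with scaling computed without the members 1, against 0.633%. Among the 100 contigs of ranks 101 to 200, DESeq2 called 23 (4 higher, 19 lower) and limma-voom 8 (4 higher, 4 lower). Library totals gave 30 calls there (3 higher, 27 lower) and all 32 libraries 22 (4 higher, 18 lower). Without a filter 1 of them was called, and with scaling computed without the members 4. TMM factors were 0.822 to 1.08 in old and 0.876 to 1.34 in young fat bodies, and 0.957 to 1.07 and 0.916 to 1.10 when computed without the members.

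Beta-1,3-glucan-binding protein-like, of rank 61, was the member that rose. Proteins of this kind recognise sugar polymers of fungal and bacterial walls in insect blood. It stood at 554, 1688 and 3021 CPM (lowest, median, highest) in old and at 348, 807 and 987 CPM in young fat bodies. All but 1 of the 8 old fat bodies lay above every young one, and the lowest old one lay within the young range. The log2 difference was 1.51 ± 0.28 (edgeR adjusted p = 0.026). The call was lost, with an edgeR adjusted p above 0.05, when certain single queens were left out. These were old queens O-603 (0.052) and O-796 (0.056) and young queens Y-102 (0.054), Y-503 (0.054) and Y-594 (0.061). The log2 difference in these fits stayed between 1.32 and 1.54.

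The files describe 13 of the 100 members, 8 of them with a protein name. All 13 descriptions come from the authors' deposited table of age differences in the fat body, which lists 9 of them as higher in old and 4 as higher in young queens. Those contigs were selected on age in these same libraries, so their directions are no independent evidence, and the other 87 members have no name in the files. The gene lists were likewise drawn from contigs that the authors listed for age. The ribosome and translation list has 41 contigs tested in the fat body, of which 0 rose and 8 fell, where 0.452% of all contigs rose and 0.195% fell, and its median log2 difference was -0.63. It includes 3 members, and none of these 3 was among the 8. The immunity list has 3 tested contigs, of which 1 rose, the member of rank 61, and 1 fell. The transport and storage list has 1 tested contig, the member transferrin. The cytoskeleton and matrix list has 15 tested contigs, of which 3 rose and 0 fell, and its member, dynactin subunit 4, was not among the 3.

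Among the named members listed as higher in old queens, transferrin had the widest gap. Transferrin is an iron-binding protein that the fat body releases into the blood. It stood at 564, 2985 and 5121 CPM in old fat bodies and at 52.4, 171 and 2030 CPM among young ones. Old values lay above the young median in 8 of 8 queens, and 2 young fat bodies lay above the lowest old one, that of queen Y-361 far above it. The log2 difference of 2.83 ± 0.72 did not pass (edgeR adjusted p = 0.081), and it passed by DESeq2 and limma-voom.

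Alpha-2-macroglobulin-like protein 1, of rank 69 and of a family of large protease-trapping blood proteins, stood at 643, 1409 and 3336 CPM in old fat bodies and at 335, 716 and 1094 CPM among young ones (log2 difference 1.40 ± 0.32, edgeR adjusted p = 0.057). Old fat bodies lay above the young ones except for the lowest, which fell inside the young range. Icarapin-like, of rank 32, is named after a honeybee venom protein. It stood at 2346, 3094 and 6381 CPM in old fat bodies and at 1582, 2271 and 3016 CPM among young ones (log2 difference 0.88 ± 0.24, edgeR adjusted p = 0.098). All 8 old values lay above the young median, and the ranges overlapped.

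The other 4 described members had lower values in old fat bodies, all of them named. Eukaryotic initiation factor 4A-I, a helicase that opens messenger RNA for translation, stood at 955, 1300 and 1858 CPM in old fat bodies and at 1363, 2560 and 3041 CPM among young ones (log2 difference -0.63 ± 0.16, edgeR adjusted p = 0.076). Dynactin subunit 4, part of the complex that links the motor dynein to its cargo, stood at 510, 609 and 1152 CPM in old fat bodies and at 994, 1433 and 2193 CPM among young ones (-0.81 ± 0.21, edgeR adjusted p = 0.09). In each case no old fat body reached the young median.

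The remaining pair of named members are proteins of the ribosome, 1 of its small and 1 of its large subunit. 40S ribosomal protein S5 stood at 470, 720 and 1050 CPM in old fat bodies and at 1056, 1315 and 1908 CPM among young ones, and the groups did not overlap (log2 difference -0.63 ± 0.17, edgeR adjusted p = 0.1). 60S ribosomal protein L13 stood at 477, 659 and 967 CPM in old fat bodies and at 871, 1155 and 1784 CPM among young ones, overlapping slightly (-0.54 ± 0.16, edgeR adjusted p = 0.13). Of all members 3 had every old value below every young one, against 1.04% of all tested contigs, and 0 had every old value above, against 0.192%. The other 2 of the 3, ranks 81 and 95, have no name, and ranges of plain CPM carry no TMM scaling.

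**Figure D3:**
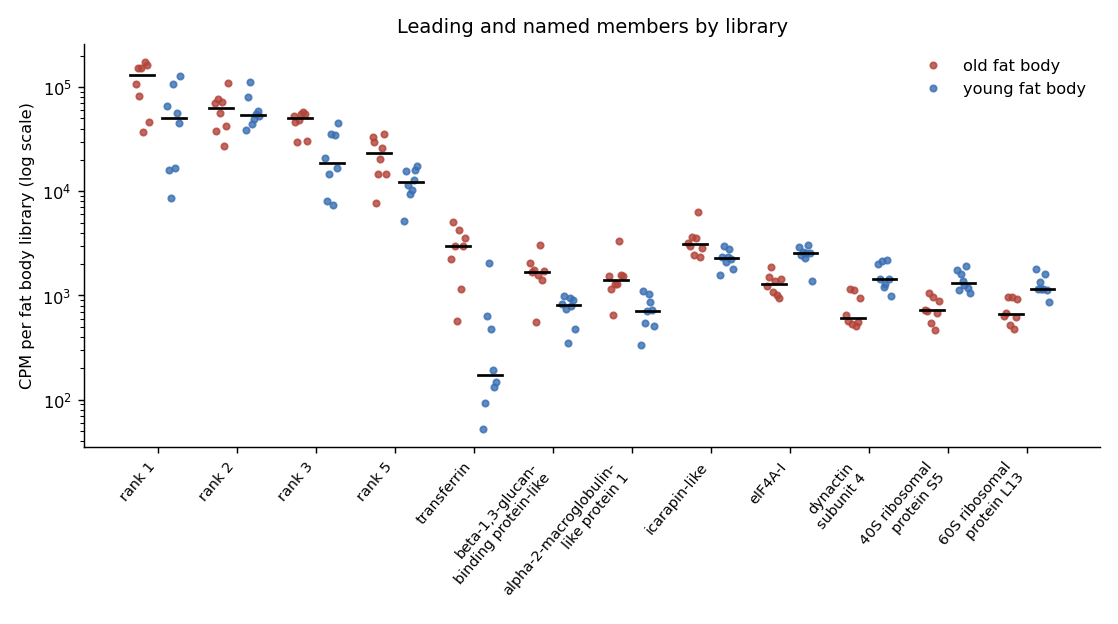
CPM (log scale) of 4 leading and the 8 named members in each of the 8 old (red) and 8 young (blue) fat bodies, with the group median as a black bar. Rank 2 overlaps almost fully between ages, transferrin has the widest gap between medians (2985 against 171 CPM), and 40S ribosomal protein S5 has no overlap.

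The 5 uncharacterized ant proteins among the described members, of ranks 4, 22, 31, 39 and 74, are all listed as higher in old queens. Rank 4 stood at 25817, 33836 and 51711 CPM in old fat bodies and at 7878, 21295 and 37385 CPM among young ones. Rank 22 stood at 1907, 5179 and 13517 CPM in old fat bodies and at 176, 1956 and 3046 CPM among young ones. Old values of ranks 4, 31, 39 and 74 lay above the young median in 8 of 8 queens, and those of rank 22 in 7 of 8. Their log2 differences were between 1.01 and 2.14, and their edgeR adjusted p between 0.056 and 0.13.

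Most members were more abundant in the fat body than in the brain, as their selection makes likely. The median ratio of the mean fat body CPM to the mean brain CPM was 3.74, and it was 7.48 after TMM scaling over 32 libraries. On plain CPM 93 members had a ratio over 1, 77 over 2, 42 over 10 and 6 over 100. In 52 members the fat body lay above the brain in all 16 queens. The authors' deposited tissue tables list 87 members in young queens, 84 higher in the fat body and 3 in the brain, and 92 members in old queens, 89 and 3. Per queen the median log2 ratio ran from 0.95 in old queen O-603 to 2.46 in old queen O-829.

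The largest ratio, 761, belonged to rank 16, a contig of 2264 bases at 5118 CPM in the fat body and 6.72 CPM in the brain. Rank 78 followed, with 1037 CPM in the fat body and 2.21 CPM in the brain. The ratio of 283 for rank 70 rests on 1 fat body, described below. At the other end, ranks 33, 51 and 35 were lower in the fat body than in the brain of every queen, at 0.0982, 0.111 and 0.177 of the brain level. Rank 33 was the most abundant contig of the brain, at 27925 CPM, and rank 2 the second, at 15977 CPM. In all, 41 of the 100 members were also among the 100 most abundant contigs of the brain.

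**Figure D4:**
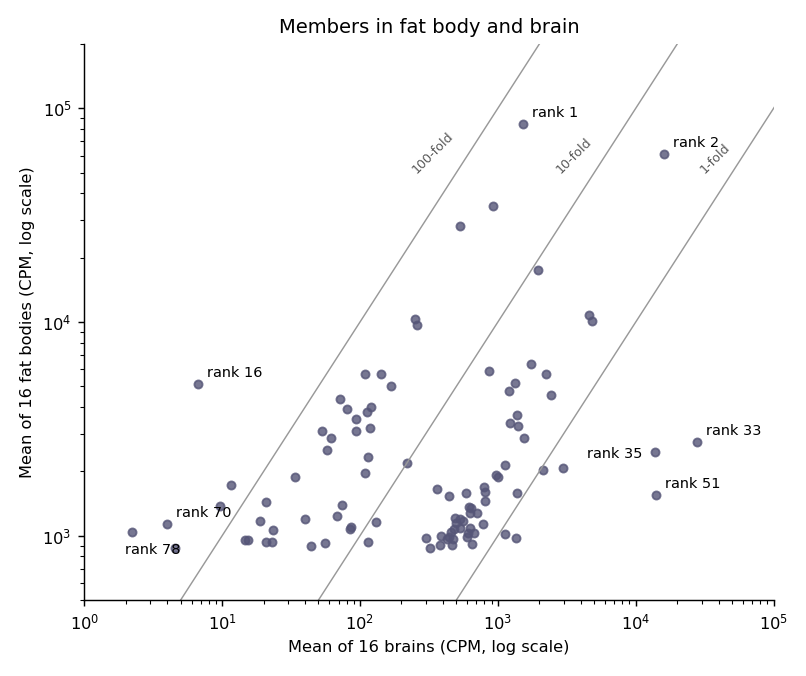
Mean CPM of the 100 members in 16 fat bodies (vertical axis) against 16 brains (horizontal axis), both on log scales, with lines at 1-, 10- and 100-fold. The points reach from rank 16 at 761 times its brain level to rank 33 at 0.0982 times, and 7 members lie below the 1-fold line.

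The 42 members with a ratio over 10 together stood 11.9 points higher in old fat bodies. They held 20.7% to 40.9% of the counts of old fat bodies, with a mean of 31.3% ± 7.49, and 13% to 32% of young ones, with a mean of 19.4% ± 6.10. Of this gain 7.52 points lay in the component of ranks 1, 7, 9, 12 and 21. The component of ranks 3, 17 and 25 held 2.56 points and rank 4 held 1.35 points, so a few contigs made up most of it. Of the 42, 29 had a higher mean CPM in old queens, and 15 were higher and 1 lower at an unadjusted p under 0.05, where 7.22% of all tested contigs were higher and 6.06% lower. The 51 members with a ratio between 1 and 10 held 18.6% ± 4.65 and 19.6% ± 5.24. Of these 51, 12 had a higher mean CPM in old queens, and 7 were higher and 19 lower at the same threshold and against the same 7.22% and 6.06%. In the TMM-scaled edgeR fit 33 of the 42 and 20 of the 51 had a positive log2 difference. The median log2 difference was 0.44 in the former and -0.24 in the latter set. The 20 members lower at that p had a median length of 1208.5 bases and the 23 higher ones 3361 bases.

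**Figure D5:**
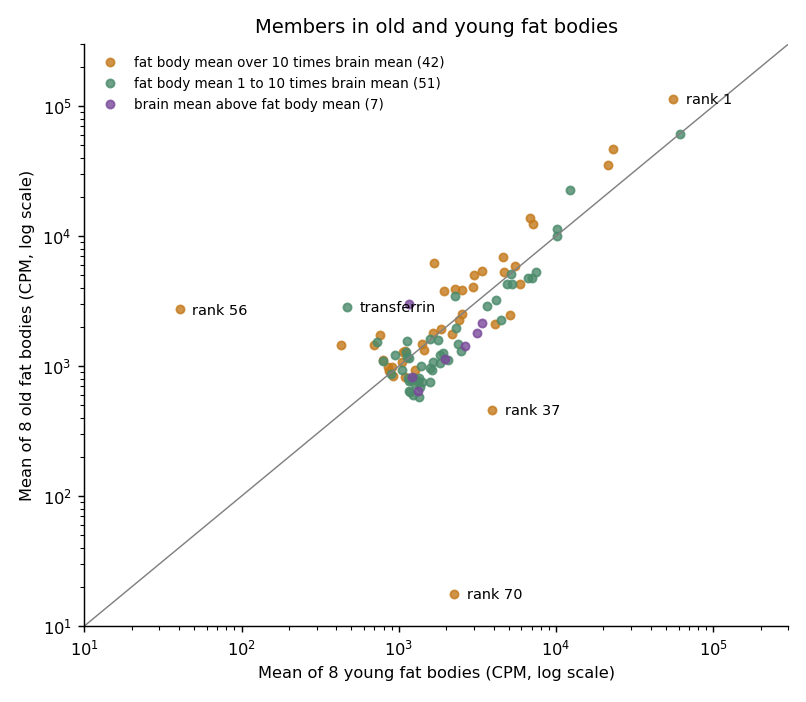
Mean CPM of each member in 8 old (vertical axis) against 8 young fat bodies (horizontal axis), both on log scales, coloured by the ratio of fat body to brain, with the line of equal levels. On this plain CPM scale, most members over 10 times their brain level lie above the line (29 of 42). Fewer of those between 1 and 10 times do (12 of 51). In the TMM-scaled edgeR fit 33 of 42 and 20 of 51 had a positive log2 difference. Ranks 37, 56 and 70 rest on 1 fat body each.

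In the brains the 42 members with a ratio over 10 were present at low levels that varied between queens. They held 0.0969% to 2.56% of the counts of a brain, the highest being young queen Y-361. Rank 1 stood at 9011 CPM in that brain, and at 82.9 to 2861 CPM in the other 15. Carry-over of fat body RNA into a brain sample was not tested.

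Cell type markers could be found only among contigs with a description, which the authors listed for an age difference in these libraries, so their differences between ages follow from that selection. The 7 described gut and Malpighian tubule contigs summed to 81.4 to 1146 CPM in old fat bodies, with a median of 533, and to 73.3 to 359 CPM in young ones, with a median of 127. The 14 oenocyte contigs, of cells attached to the fat body, summed to 44.1 to 174 CPM for old queens and 131 to 554 CPM for young ones. The haemocyte contig stood at 161.5 to 269.1 CPM for old queens and 76.2 to 201 CPM for young ones. The 1 venom and gland contig stood at 79.9 to 168 CPM for old and 46.0 to 76.3 CPM for young queens, and the 2 muscle contigs summed to 0.712 to 5.63 and 1.88 to 27.7 CPM. In brains the haemocyte contig stood at 103.0 to 161.8 CPM for old and 106.1 to 144.9 CPM for young queens. The gut and Malpighian tubule contigs summed to 65.2 to 83.1 CPM in old and 68.2 to 97.9 CPM in young brains. The muscle contigs summed to 4.91 to 19.0 and 3.32 to 20.8 CPM there. The oenocyte and the venom and gland contigs had lower medians in brains than in fat bodies at both ages. The lists match words in the descriptions, for gut and Malpighian tubule among others trypsin and V-type proton, so a name can match without marking that cell type. Whether a contig is specific to its cell type was not tested. No contig of these 5 lists is a member or at 0 in all fat bodies, and no described contig matched the germline or glia list. The fat body list has 2 described contigs, of which 1 is the member transferrin. Their part in the age differences of the members was not tested, and a different mix of cells and a different level per cell cannot be told apart.

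In the brain 0 of the 100 members passed the threshold for age by edgeR, as did 0.0% of 40572 contigs tested. At an unadjusted p under 0.05, 2 members were higher and 15 lower in old brains, against 2.74% and 1.9% of all contigs. The 100 contigs of ranks 101 to 200 were much like the members here, with 2 higher and 17 lower. The median log2 difference was -0.20 over the members, -0.14 over ranks 101 to 200 and 0.01 over all contigs. Rank 33, the leading brain contig, had mean levels of 23755 CPM in old brains and 32094 CPM in young ones (log2 difference -0.48 ± 0.17, edgeR adjusted p = 0.9). Of the 20 members lower in old fat bodies at an unadjusted p under 0.05, 18 also had a negative log2 difference in the brain, and of the 23 higher ones 12 a positive one. Of all 100 members 32 had a positive log2 difference in the brain, against 51.3% of all contigs tested there. Both tissues come from the same queens and are not independent of each other. DESeq2 called 1 member in the brain, rank 37, against 0.261% of all contigs, and limma-voom called 0, against 0.0%.

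The age difference was then compared between the tissues. The difference of the log2 differences passed the threshold for 0 of the 100 members by edgeR, against 0.226% of 48253 contigs. At an unadjusted p under 0.05, 14 members had a higher and 3 a lower age difference in the fat body than in the brain, against 6.62% and 3.47% of all contigs. For the 100 contigs of ranks 101 to 200 these counts were 10 and 10. With the queen as a block 0 members passed as well, against 0.00414% of all contigs. DESeq2 called 3 members, against 1.89% of all contigs, which were rank 39, transferrin and beta-1,3-glucan-binding protein-like. For the last of these the age difference was larger by 1.3 ± 0.37 log2 units in the fat body (edgeR adjusted p = 0.13), and its brain levels overlapped at 49.0 to 129 CPM in old and 43.3 to 85 CPM among young queens.

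The rank of 3 members rests on 1 fat body each. Rank 37, of 8421 bases, stood at 30388 CPM in young queen Y-102 and at 12.6 to 1056 CPM in the other 15 fat bodies, so that this library held 86.7% of its summed CPM. Rank 56, of 781 bases, stood at 20786 CPM in old queen O-603 and at no more than 673 CPM elsewhere, or 93.8% of its sum. Rank 70, of 10970 bases, stood at 17862 CPM in young queen Y-651, 128 CPM in old queen O-603 and 99.1 CPM in young queen Y-503, and below 5 CPM in the other 13. In the brains of those 3 queens the contigs stood at 18.7, 116 and 4.58 CPM. Rank 37 also varied between brains, at 1.45 to 1531 CPM in old and 2.35 to 88.6 CPM among young ones. Without these 3 members the share differed by 10.8 points between old and young fat bodies.

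A pair of members of the same component, ranks 40 and 85, are each 2989 bases long and exchanged places from queen to queen. Rank 85 held at most 0.300% of the pair's summed fat body CPM in 7 queens, at least 99.5% in 2 queens, and 48.8% to 50.1% in 6 others. Old queen O-829 stood apart from these at 82.5%. The same queen's brain gave the same picture, and fat body and brain differed by no more than 4.34 percentage points in any of the 16 queens. Old and young queens were found in each of these sets, 4 and 3 among the 7 queens with almost no rank 85. Each contig alone therefore had a wide error (log2 differences -0.54 ± 0.86 and -0.81 ± 1.64), but their sum was 2075 ± 502 CPM for old and 3952 ± 799 CPM for young queens' fat bodies. The summed ranges, 1708 to 3169 and 2682 to 4950 CPM, overlapped in part.

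Rank 83, of 1577 bases and the same component as rank 8, likewise was near absent in some queens. It stood at 2.82 to 7.76 CPM in 4 fat bodies, those of queens O-269, O-469, Y-453 and Y-651, and at 468 to 2629 CPM in the other 12. The brains of these 4 queens held 2.16 to 5.12 CPM and the other 12 brains 440 to 793 CPM. The split thus followed the queen in both tissues, with 2 old and 2 young queens at the low level. Ranks 40, 56, 81, 83, 85 and 95 were chosen for mention with their values in view.

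The border of the ranking was gradual. Ranks 98, 99 and 100 stood at 895, 876 and 875 mean CPM, and the next 3 contigs, just outside, at 874, 856 and 856. The last of these is described as semaphorin-5B. Ranked on old fat bodies alone, 89 of the members would have been among the 100 most abundant, and on young ones alone 86.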

How the data were processed

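The authors deposited whole-number read counts per contig of a transcriptome assembly, 1 column for each of 32 libraries, with no scaling. Tools in the submitters' processing notes are RSEM 1.3.0, Bowtie and Bowtie2, DESeq2 1.2.10, Trimmomatic 0.36 and FastQC 0.11.5, with no role or order, and the program that assembled the contigs is not given in those notes. RSEM divides reads between similar contigs, so the counts of related contigs can be rounded estimates. Further tables deposited by the authors hold their comparisons, with log2 fold changes and adjusted p-values, per the file headers; these were used for names and directions. In their tissue tables the sign is negative where the fat body has the higher counts.

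CPM is the count over the column total, and shares are sums of CPM. Contig lengths were read from the contig identifiers. Age was tested with edgeR 4.0.16 (R 4.3.3; TMM scaling, filterByExpr with a minimum count of 10 and a minimum total count of 15, quasi-likelihood test, Benjamini-Hochberg adjustment over all contigs tested, threshold 0.05), old minus young in each tissue, and as the difference between tissues over 32 libraries. DESeq2 1.42.0 and limma 3.58.1 (voom) were alternatives, with other scaling, no filter, all libraries in 1 fit, counts summed per assembly gene, and each library left out in turn. The scripts were tested on simulated data. Brain and fat body of a queen deviated together from their group means (correlation 0.352 to 0.440 across 48253 contigs, at most 0.0957 between queens), and each of 16 brains matched its own fat body best.

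Members named in the text are the 10 most abundant, those called for age, those with a protein name, the 5 largest gains and 5 largest losses of mean CPM, the 3 highest and 3 lowest in the brain relative to the fat body, and the 3 on either side of rank 100. Not all of these are printed. Members outside these choices are the uncharacterized proteins of ranks 22, 31, 39 and 74, given because the files describe them, ranks 12, 17, 21 and 25, given as parts of a component, and ranks 40, 56, 81, 83, 85 and 95, chosen after their values were known. The members and lists were chosen with earlier results of these data known. At totals of 13861667 counts or more per library, the counting error of a member is small beside the spread between queens.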

Additional observations from a re-analysis of the deposited data

Results flagged for a closer look

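In 11 of 62 groups of 8 fat bodies examined for the named members, 1 library stood far from the other 7 by Dixon's ratio at its 95% limit. That limit assumes normally distributed values, and the groups share the same libraries. Ranks 37 and 70 were named for a large loss of mean CPM, which 1 high young library can produce. The count of groups is therefore a description and is not set against chance. The 11 groups concern 9 members. Rank 37 reached 30388 CPM in young queen Y-102, where the next young value was 466 CPM. Rank 70 reached 17862 CPM in young queen Y-651, next to 99.1 CPM, and among old queens 128 CPM in queen O-603, next to 4.42 CPM. Rank 23 reached 15681 CPM in young queen Y-651, next to 5854 CPM, and 5685 CPM in old queen O-469, next to 3023 CPM.

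Old queen O-603 was the high library for icarapin-like, at 6381 CPM, and for alpha-2-macroglobulin-like protein 1, at 3336 CPM. Transferrin stood at 2030 CPM in young queen Y-361, where the next young value was 642 CPM. Eukaryotic initiation factor 4A-I was low in young queen Y-651, at 1363 CPM, below the next young value of 2311 CPM. Rank 4 stood at 51711 CPM in old queen O-189 and rank 8 at 20820 CPM in young queen Y-333. The reasons for these single high or low values were not tested.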

How the results depend on the processing

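Under every choice of members tried, the share was higher in old than in young fat bodies and lower in old than in young brains. The fat body difference of 10.5 points lay between 8.62 and 12 with other choices (ranked on the median, on 1 age alone, 50 or 200 contigs, without 3 members chosen after seeing the data), and was 4.65 without the most abundant member. The tissue bias was a median log2 ratio of 1.90 on plain CPM and 2.90 with TMM scaling.

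The count of members called for age in the fat body, 1 by the main test, was 22 by DESeq2 (14 higher, 8 lower), 14 by library totals (1 higher, 13 lower), 6 by limma-voom (5 higher, 1 lower), 15 with all 32 libraries in 1 fit (7 higher, 8 lower) and, with counts summed per assembly gene, 9 of the 93 genes that hold members (6 higher, 3 lower). It was 1 without a filter and 1 with scaling factors computed without the members. Leaving out 1 library gave 0 to 4 calls (0 to 3 higher, 0 to 1 lower): 0 without O-603, O-796, Y-102, Y-503 or Y-594, 2 without Y-361 or Y-453, 3 without Y-651 and 4 without O-426. In the brain DESeq2 called 1, higher, and every other test 0. For the difference between tissues DESeq2 called 3, all higher, 1 was called without queen Y-361 (0 to 1 over the queens left out), and with the queen as a replicate block 0 members and 2 of all contigs were called.

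The direction turned under at least 1 alternative for 23 of the 100 members, none of them called by the main test: for 12 with library totals, all from higher to lower, 7 with limma-voom, 3 with counts summed per gene, 1 without a filter and 15 with 1 library left out. Among the named members it turned for 6. With library totals, the log2 difference of rank 8 became -0.014, that of rank 99 -0.031 and that of rank 100 -0.13. Limma-voom gave 0.28 for rank 37, 1.35 for rank 70 and -0.018 for rank 99, and summing per gene gave 0.24 for rank 78. Leaving out 1 library gave -2.77 to 2.10 for rank 37, -10.32 to 0.54 for rank 70 and -0.30 to 0.70 for rank 99. DESeq2 gave no adjusted p for 3 members. The causes were not tested.

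The files describe 13 members only, and related contigs can exchange reads. A count was present in all 32 libraries for 95 members, while 2 members were at 0 in a fat body and 4 in a brain, where depth limits their level.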
